A study of Mus musculus with 5 samples.

Results

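The transcriptome described here is that of the untreated Control library of a study of Lewis lung carcinoma (LLC), a mouse lung cancer line that grows in C57BL/6 mice. Its members are the 20236 gene symbols listed in the Control column of the table that pairs Control with PAZA, out of 55348 symbols in the fullest table of the series. The series holds 5 libraries, named Control, PAZA, BMN, BMN/PAZA_Low_dose and BMN/PAZA_High_dose, and each of them is alone in its group. BMN is the PARP inhibitor BMN673 and PAZA is a polymer that carries the DNA methyltransferase inhibitor azacitidine. The labels name no agent for the Control group, the control mice of the paper's treatment experiments received intravenous saline, and whether the RNA came from such mice is not given in the sources used here. Untreated here therefore means without drug, and no comparison with a treated library is made here. With a lone library there is no replicate error, so the values are a description of this RNA sample and no test was made. The paper's methods describe RNA from tumors removed a day after the last treatment, whereas the labels describe cultured LLC cells treated for 72 h and give the tissue as lung. Markers of host cells follow and are given as measured, and which of these descriptions holds was not tested. How many animals or cultures the RNA came from is not given in the sources used here.

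A carcinoma line of this kind is held to divide rapidly and to have lost much of the program of the lung epithelium. A tumor grown from it in a mouse also holds vessels, connective tissue and infiltrating leukocytes, among which macrophages are often prominent. Bulk RNA adds all of these together, so that fewer cells of a type and less RNA per cell cannot be told apart, and a gene used by tumor and host cells alike cannot be divided between them.

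The values are FPKM, that is, fragments per kilobase of transcript scaled by the fragments of the library, and they compare genes per length. A level of 1 FPKM was used as the threshold for calling a gene expressed. Of the 20236 listed symbols, 11461 (56.6%) were at or above 1 FPKM, and the median level was 1.74 FPKM. Among the 21565 protein-coding genes of the fullest table, 10092 (46.8%) were at or above 1 FPKM, which is the background for the lists that follow. A further 2453 symbols were listed at 0, and 35112 symbols of the fullest table had no row. The table had 0 rows at 0 in both of its columns, so a gene listed at 0 here had a value in its other column, and a gene with no row is called not listed. The distribution had a broad peak of protein-coding genes near 10 FPKM and a lower peak of other symbols below 1 FPKM.

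**Figure D1:**
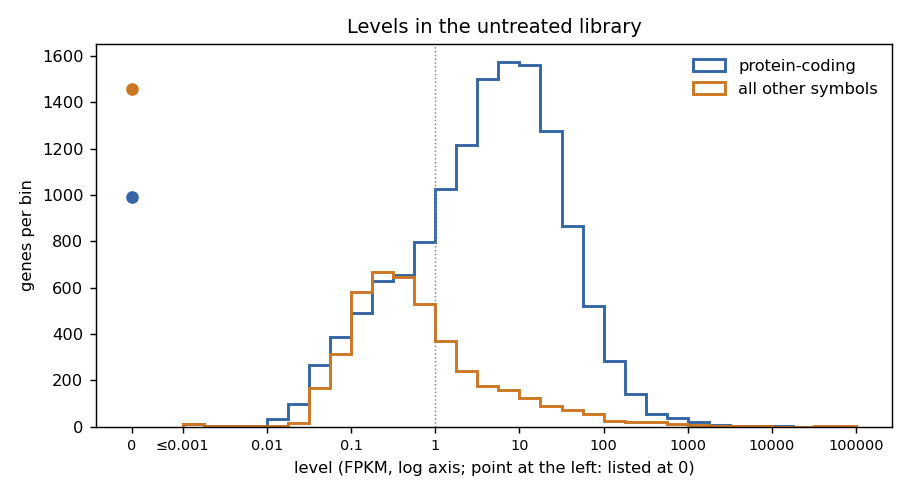
Number of symbols per bin of level in the untreated library, with FPKM on a log axis, for the 14460 protein-coding genes (blue) and all other symbols (orange). The points at the left count the symbols listed at 0, and the dotted line is the threshold of 1 FPKM. Most protein-coding genes lie above 1 FPKM, with a median of 4.02 FPKM, and most other symbols lie below it.

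The depth could be read from the weakest values. Among genes with a single annotated transcript, levels multiplied by length fell on evenly spaced steps, and the spacing gave a total of about 7266000 fragments, with each transcript counted as 180 bases shorter than annotated. Of 2069 such genes between 0.5 and 5.5 fragments, 97.1% lay within 0.1 of a whole fragment, where 20% would do so if values were spread evenly. The first 5 steps held 835, 526, 322, 220 and 166 genes. The spacing was fitted to 822 genes kept within 0.1 of 1 fragment, so the first step does not check it. In steps 2 to 5, which the fit did not use, 502, 313, 214 and 157 genes lay within 0.1 of the whole fragment. Fragment numbers given below for genes with several transcripts use the longest transcript and are estimates. Their 95% exact Poisson intervals cover counting error only.

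**Figure D2:**
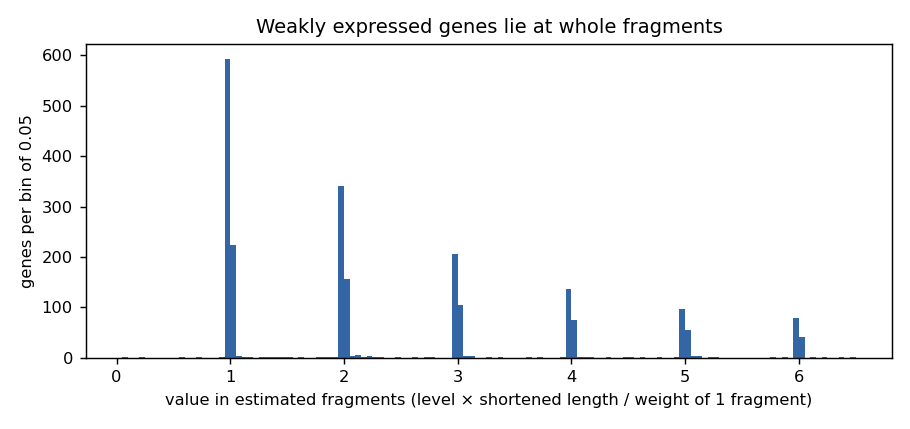
Levels of weakly expressed genes with 1 annotated transcript, expressed as estimated numbers of fragments (x axis), against the number of genes per bin of 0.05 (y axis). Nearly all genes sit at whole numbers, and 97.1% of 2069 genes lie within 0.1 of them. The spacing was fitted to genes near 1 fragment.

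RNA that is not messenger RNA took a large part of the summed levels. Protein-coding genes held 58.9% of the sum and the 2 mitochondrial ribosomal RNAs held 20.4%. The most abundant symbols were mt-Rnr2 at 65594 FPKM and mt-Rnr1 at 55136 FPKM, the RNAs of the large and the small mitochondrial ribosomal subunit. Rn7sk, the 7SK RNA that restrains the elongation factor P-TEFb, followed at 46592 FPKM. Small nucleolar RNAs held 3.996% of the sum, led by Snord21 at 9947 FPKM, and small nuclear RNAs held 1.98%. Malat1, a long nuclear RNA, stood at 5087 FPKM. Snord21 is 94 bases long, which is less than the 180 bases by which longer transcripts were shortened, so its level is not comparable with that of a messenger RNA. The 10 most abundant symbols held 36.7% of the sum, the top 100 held 54.2% and the top 1000 held 77.1%. These shares are of values per length. The top 10 held 20.4% for values times the longest transcript length. Over protein-coding genes only, the top 10 held 13.6% of the sum, and 10.2% for values times coding length, which noncoding symbols do not have.

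Among protein-coding genes, B2m was the most abundant at 10237 FPKM. It encodes the invariant light chain of MHC class I. The next were the mitochondrially encoded mt-Co1 at 7359 FPKM, mt-Cytb at 5967 FPKM, mt-Nd1 at 5769 FPKM and mt-Nd2 at 4507 FPKM, all of them subunits of the respiratory chain. Spp1, which encodes the secreted matrix protein osteopontin, reached 3428 FPKM, an estimated 33066 fragments. Eef1a1, the elongation factor that brings aminoacyl-tRNA to the ribosome, was at 3285 FPKM. The chaperone Hspa8 was at 2361 FPKM, the nucleolar protein gene Npm1 at 2341 FPKM and Actb, cytoplasmic actin, at 2034 FPKM. Ctsl, a lysosomal cysteine protease, was at 1967 FPKM. Of the 100 most abundant protein-coding genes, 36 encoded cytosolic ribosomal proteins and 7 were mitochondrially encoded. Rps24 at 1785 FPKM, Rps12 at 1765 FPKM and Rpl23 at 1679 FPKM led the ribosomal proteins, which held 6.24% of the whole sum.

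The machinery of growth was present throughout. All 25 proliferation genes were at or above 1 FPKM, against 46.8% of protein-coding genes, with a median of 49.1 FPKM. Pcna, the sliding clamp of DNA replication, was at 263 FPKM. Top2a, the topoisomerase that untangles replicated chromosomes, was at 132 FPKM, and the mitotic kinase Cdk1 was at 113 FPKM. Birc5, or survivin, was at 111 FPKM and Mki67, the antigen used to mark cycling cells, at 84.4 FPKM. The lowest members were the mitotic kinase Plk1 at 7.02 FPKM and the thymidylate synthase gene Tyms at 7.29 FPKM. All 16 genes of glycolysis were also at or above 1 FPKM, with Pkm, pyruvate kinase, at 443 FPKM and Ldha, lactate dehydrogenase, at 240 FPKM.

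The growth signals of RAS were read from 22 genes, of which 20 were at or above 1 FPKM, with a median of 12.1 FPKM. The RAS genes Nras and Hras were at 43.6 and 13.6 FPKM. The receptor tyrosine kinase Met was at 63.8 FPKM, while the receptor Egfr was at 0.551 FPKM. Dusp4 at 50.6 FPKM and Dusp6 at 35.6 FPKM encode phosphatases that ERK signaling induces and that switch ERK off. Spry4, another feedback inhibitor, was the lowest at 0.512 FPKM.

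**Figure D3:**
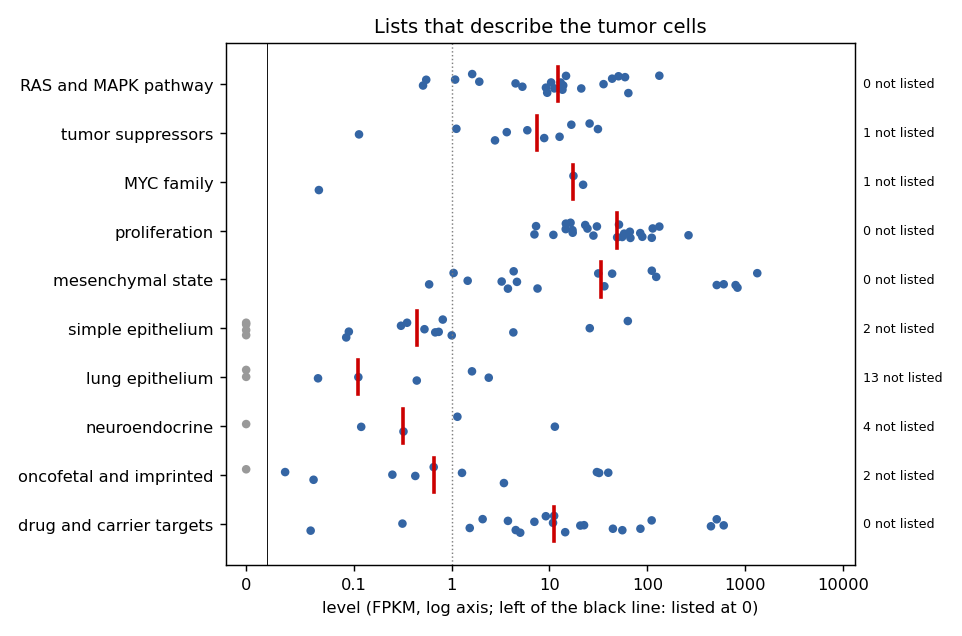
Level of each listed member (blue points, FPKM on a log axis) of 10 lists that describe the tumor cells or genes related to the study's agents. Grey points left of the black line are genes listed at 0, red bars are medians over listed members, the dotted line is 1 FPKM, and the number of members not listed is at the right. Proliferation and mesenchymal genes lie mostly above 1 FPKM, with medians of 49.1 and 33.9 FPKM, and epithelial genes of the simple and lung types lie mostly below it or are not listed.

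Among 11 tumor suppressor and p53 pathway genes, 9 were at or above 1 FPKM. Mdm2, the ligase that degrades p53, was at 31.2 FPKM. Nf1, which turns RAS off, was at 16.7 FPKM, Stk11 (LKB1) at 12.7 FPKM and Rb1 at 8.83 FPKM. Keap1, which holds NRF2 in check, was at 5.94 FPKM, the CDK inhibitor gene Cdkn2c at 3.66 FPKM and Cdkn1a (p21) at 2.78 FPKM. Trp53, which encodes p53, was at 1.12 FPKM, an estimated 25.2 fragments, with an interval of 0.719 to 1.64 FPKM. The level of Trp53 was therefore close to the threshold, and below the median of all listed symbols.

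The lowest members of that list were neighbours. Cdkn2b, which encodes the CDK inhibitor p15, was at 0.114 FPKM, the value of 0.999 of a fragment. Cdkn2a, which encodes p16 and p19ARF, was not listed, and 3 fragments of it would be 0.577 FPKM. Cdkn2a lies at chr4:89274471-89294653 and Cdkn2b at chr4:89306299-89311039 (GRCm38, GENCODE M21). The next protein-coding gene on the Cdkn2a side, Mtap, a methionine salvage enzyme at chr4:89137122-89181081, was at 46.2 FPKM. On the Cdkn2b side, Dmrta1 was listed at 0. Within 1000000 bases of Cdkn2a on either side the annotation held 40 protein-coding genes, of which 4 were at or above 1 FPKM: Mtap, Klhl9 at 41.6 FPKM, Hacd4 at 3.07 FPKM and Focad at 2.42 FPKM. Many of the others are type I interferon genes, including Ifnb1, which was not listed. RNA levels do not tell a lost locus from a silent one. That was not tested.

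In the MYC family, Myc was at 22.04 FPKM and its partner Max at 17.6 FPKM. Mycl was at 0.0442 FPKM, about the value of 1 fragment, and Mycn was not listed.

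The library had a mesenchymal profile. Of 18 mesenchymal genes, 17 were at or above 1 FPKM, with a median of 33.9 FPKM. Vim, the intermediate filament vimentin, was at 1322 FPKM. S100a4, a calcium-binding protein of motile cells, was at 830 FPKM, the galectin gene Lgals1 at 794 FPKM, fibronectin (Fn1) at 601 FPKM and the integrin chain Itgb1 at 510 FPKM. Among the transcription factors that repress epithelial genes, Zeb1 was at 43.6 FPKM, Zeb2 at 36.3 FPKM, Snai2 at 7.55 FPKM and Snai1 at 1.05 FPKM. Cdh2, N-cadherin, was the lowest at 0.591 FPKM. Host fibroblasts and macrophages also use Vim, Fn1, S100a4 and Lgals1, so that these levels are not those of tumor cells alone.

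Of 18 genes of simple epithelium, only 4 were at or above 1 FPKM. These were Krt8 at 63.0 FPKM, Krt19 at 25.8 FPKM, the tight junction gene Ocln at 4.27 FPKM and Cdh1, E-cadherin, at 1.004 FPKM. Cdh1 rested on an estimated 31.0 fragments, with an interval of 0.682 to 1.42 FPKM that spans the threshold. Epcam, an epithelial adhesion molecule, was at 0.352 FPKM, an estimated 4.75 fragments. The keratin genes Krt18 and Krt7, the junction gene Tjp3 and the transcription factor gene Elf3 were listed at 0, and the claudin genes Cldn3 and Cldn7 were not listed. Krt18 is the usual partner of Krt8 in filaments. Where Krt8 had an estimated 815 fragments, 3 fragments of Krt18 would have given 0.328 FPKM.

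The label of lung tissue was not matched by lung epithelial markers. Of 20 such genes, 2 were at or above 1 FPKM and 13 were not listed. The 2 were Abca3, the lipid transporter of lamellar bodies, at 2.40 FPKM and the aspartic protease gene Napsa at 1.62 FPKM. The genes of the surfactant proteins (Sftpa1, Sftpb, Sftpc, Sftpd), the club cell secretoglobin gene Scgb1a1 and the lineage factor gene Nkx2-1 were not listed. For Nkx2-1, 3 fragments would be 0.157 FPKM. Of 9 neuroendocrine genes, the adhesion molecule gene Ncam1 at 11.3 FPKM and Syp, synaptophysin, at 1.15 FPKM were at or above 1 FPKM.

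Genes normally used before birth or in the germ line were mostly under 1 FPKM or not listed, with a few that were high. Of 13 oncofetal and imprinted genes, 5 were at or above 1 FPKM. Igf2bp2, an RNA-binding protein, was at 39.8 FPKM, and the chromatin proteins Hmga2 and Hmga1 were at 32.1 and 30.5 FPKM. The imprinted Igf2 was at 0.0390 FPKM and H19 was listed at 0. In the placental prolactin family, 21 of 25 genes were not listed, but Prl2c3 was at 78.1 FPKM and Prl2c2 at 11.3 FPKM. These are proliferins, near-identical copies of each other, so that the division of reads among them is uncertain. Rhox5, an X-linked homeobox gene of testis and placenta picked after its level was seen, was at 800 FPKM and ranked 59 of all symbols. Of 14 genes of testis and oocyte, 0 were at or above 1 FPKM, and Pou5f1, Nanog and Sox2 of the pluripotency list were not listed.

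A list of 21 genes held the enzymes that the study's agents act on and genes of drug activation, DNA repair, DNA sensing and nanocarrier uptake. Of these, 19 were at or above 1 FPKM, with a median of 11.1 FPKM. Dnmt1, the maintenance DNA methyltransferase that azacitidine depletes, was at 84.8 FPKM. Uhrf1, which guides DNMT1 to new strands, was at 44.4 FPKM. The de novo enzyme genes were lower, with Dnmt3a at 5.03 FPKM and Dnmt3b at 0.0364 FPKM, an estimated 1.10 fragments. Uck2, the kinase that activates azacitidine, was at 55.4 FPKM and Uck1 at 4.52 FPKM. The nucleoside transporter Slc29a1 was at 2.08 FPKM and Slc29a2 at 0.315 FPKM.

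The targets of BMN673 were Parp2 at 22.5 FPKM and Parp1 at 14.5 FPKM. Of the genes of homologous recombination, Brca1 was at 20.6 FPKM and Brca2 at 9.17 FPKM. In the sensing of cytosolic DNA, Tmem173 (STING) was at 7.01 FPKM and Cgas at 1.53 FPKM. Cd274, the checkpoint ligand PD-L1, was at 11.1 FPKM. The genes of fibronectin, its receptor and the endocytic coats differed widely in level. Fn1 was at 601 FPKM, the caveola gene Cav1 at 445 FPKM and the clathrin heavy chain gene Cltc at 110 FPKM. Itga5, which pairs with Itgb1 to form the fibronectin receptor, was at 3.76 FPKM, with an interval of 3.11 to 4.52 FPKM.

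Leukocyte RNA was present. All 9 genes used by leukocytes in general were at or above 1 FPKM, with a median of 19.1 FPKM. Srgn, the granule proteoglycan serglycin, was at 121 FPKM and Ptprc, the pan-leukocyte antigen CD45, at 20.1 FPKM, an estimated 810 fragments. The labels describe the sample as cultured LLC cells, whereas the paper's methods describe RNA from tumors. Where the leukocyte RNA came from was not tested.

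**Figure D4:**
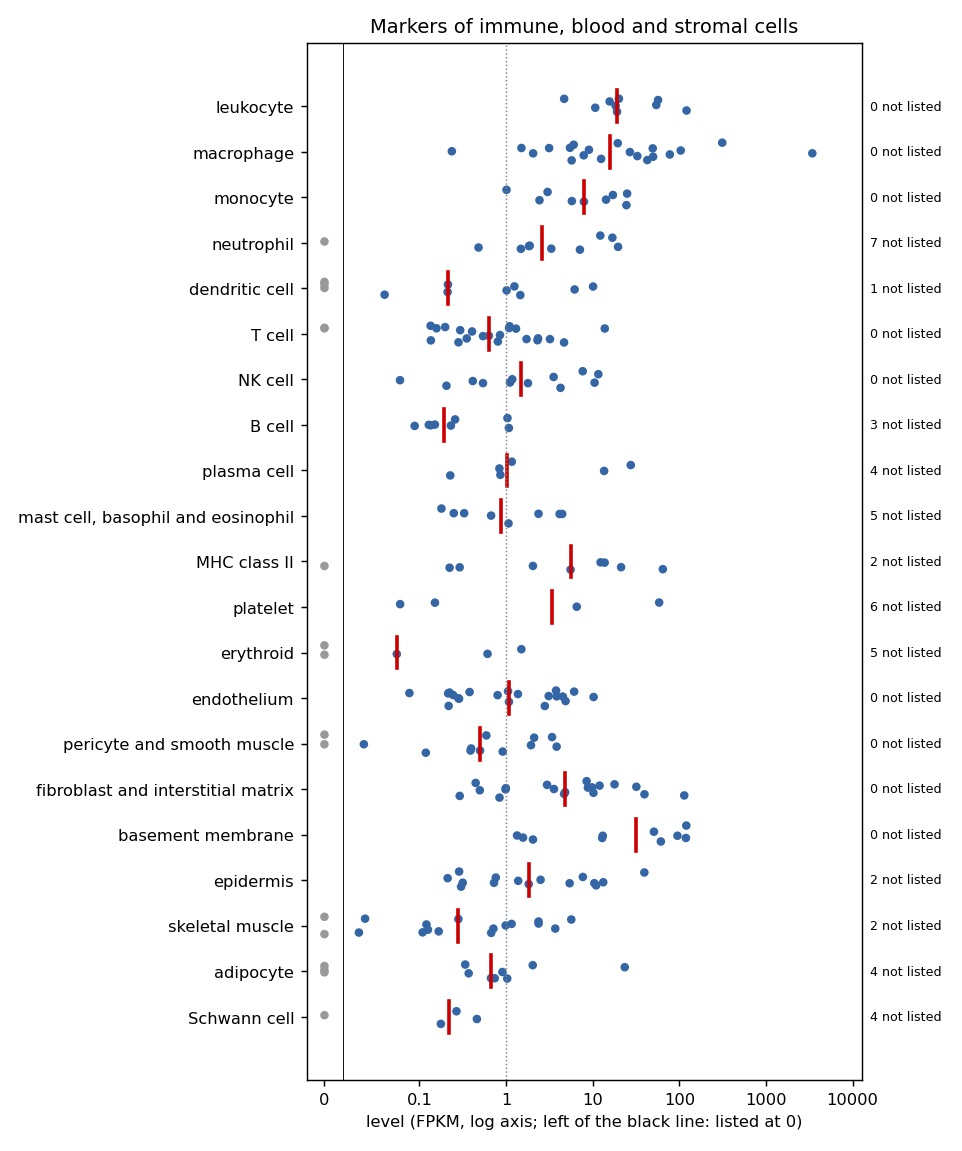
Level of each listed member (blue points, FPKM on a log axis) of 21 lists of immune, blood and stromal markers. Grey points left of the black line are genes listed at 0, red bars are medians over listed members, the dotted line is 1 FPKM, and the number not listed is at the right. Leukocyte, macrophage, monocyte and basement membrane genes lie almost wholly above 1 FPKM, whereas T cell, B cell, erythroid, muscle and Schwann cell markers lie mostly below it.

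Of 20 macrophage genes, 19 were at or above 1 FPKM, with a median of 16.0 FPKM. Spp1 led the list at 3428 FPKM, but tumor cells can also make it. Lyz2, the lysozyme of myeloid cells, was at 313 FPKM, Mrc1, the mannose receptor CD206, at 104 FPKM and Apoe at 77.7 FPKM. Nos2, the nitric oxide synthase of classically activated macrophages, was at 12.5 FPKM. Csf1r, the receptor on which macrophages depend, was at 9.04 FPKM and Adgre1 (F4/80) at 6.03 FPKM. Marco, a scavenger receptor, was the lowest at 0.236 FPKM. All 9 monocyte genes were at or above 1 FPKM, from Chil3 at 1.01 FPKM to Vcan at 24.9 FPKM, with the chemokine receptor Ccr2 at 17.1 FPKM.

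Of 17 neutrophil genes, 8 (47.1%) were at or above 1 FPKM, near the background of 46.8%, and 7 were not listed. The calgranulins S100a8 and S100a9, which monocytes also use, were at 19.6 and 16.9 FPKM, and the lectin gene Clec4d was at 12.2 FPKM. Ly6g, the antigen that defines mouse neutrophils, was not listed, and neither were the granule genes Camp, Ltf, Ngp, Elane, Mpo and Prtn3. For Ly6g, 3 fragments would be 0.542 FPKM. Of 12 dendritic cell genes, 5 (41.7%) were at or above 1 FPKM, also near that background. They were led by Fscn1 at 10.1 FPKM and Irf8 at 6.18 FPKM, which other cells share. Xcr1 and Clec9a, which mark conventional type 1 dendritic cells, and Ccr7, the homing receptor, were listed at 0.

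T cell markers were near the limit of the depth. Of 23 genes, 9 were at or above 1 FPKM, with a median of 0.633 FPKM, and 10 of the 21 above 0 rested on fewer than 10 estimated fragments. The costimulatory receptor gene Cd28 was the highest at 13.8 FPKM, and the receptor constant genes Trac and Trbc2 were at 4.67 and 3.21 FPKM. Cd3e was at 1.08 FPKM, an estimated 18.6 fragments, with an interval of 0.664 to 1.72 FPKM. Cd3d and Zap70 were listed at 0, where 3 fragments would be 0.287 and 0.200 FPKM. Cd8a was at 0.542 FPKM and Cd4 at 0.282 FPKM, with intervals of 0.289 to 0.978 and 0.103 to 0.614 FPKM that overlap. Foxp3, the factor of regulatory T cells, was at 0.134 FPKM, an estimated 3.57 fragments. Cd28 thus stood well above the genes of the T cell receptor complex to which its function is tied.

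Of 12 NK cell genes, 8 were at or above 1 FPKM, and 5 of the 12 rested on fewer than 10 estimated fragments. Eomes, a T-box factor of NK and memory T cells, was at 11.6 FPKM, whereas the related Tbx21 was at 0.0596 FPKM, about the value of 1 fragment. The granzyme genes Gzmb and Gzma were at 10.5 and 7.67 FPKM, and Prf1, perforin, was at 3.54 FPKM. Ncr1, the receptor that defines NK cells, was at 1.18 FPKM. Of 11 B cell genes, 2 were at or above 1 FPKM, Cd79a at 1.08 FPKM and Cr2 at 1.04 FPKM. Of the 8 listed B cell genes, 7 rested on fewer than 10 estimated fragments. Ms4a1 (CD20) was not listed. Of 13 genes of mast cells, basophils and eosinophils, 4 were at or above 1 FPKM and 5 were not listed, with a median of 0.869 FPKM over the listed ones. The mast cell protease genes Cpa3 and Cma1 were the highest, at 4.44 and 4.15 FPKM.

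Of 18 genes of antigen presentation by MHC class I, 17 were at or above 1 FPKM and 1 was not listed, with a median of 13.1 FPKM. Beside B2m at 10237 FPKM, the heavy chains H2-K1 and H2-D1 were at 699 and 222 FPKM. The immunoproteasome genes Psmb8 and Psmb9 were at 107 and 87.4 FPKM, and the class I transactivator Nlrc5 was at 35.4 FPKM. The peptide transporter genes Tap2 and Tap1 were lower, at 13.1 and 10.2 FPKM. Of 11 MHC class II genes, 6 (54.5%) were at or above 1 FPKM, near the background of 46.8%. H2-Ab1 was at 64.5 FPKM, the invariant chain Cd74 at 21.3 FPKM and H2-Aa at 12.3 FPKM. H2-Ea-ps was not listed. C57BL/6 mice carry an inactive form of it, so no I-E molecule is made in that strain.

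Of 26 cytokine and chemokine genes, 17 were at or above 1 FPKM. The highest attract monocytes: Ccl2 was at 144 FPKM, Ccl9 at 77.1 FPKM and Ccl7 at 62.3 FPKM. Cxcl9, which interferon gamma induces, was at 44.1 FPKM, although Ifng itself was at 0.134 FPKM, the value of 0.999 of a fragment. Vegfa, the angiogenic factor, was at 36.1 FPKM. Ifnb1 and Csf3 were not listed.

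All 20 endothelial genes were listed, and 11 (55%) were at or above 1 FPKM, near the background of 46.8%, with a median of 1.07 FPKM. Of the 20, 6 rested on fewer than 10 estimated fragments. Pecam1 (CD31) was the highest at 10.2 FPKM, an estimated 243 fragments, followed by Egfl7 at 6.10 FPKM and Emcn at 4.86 FPKM. Sox17, a factor of arterial endothelium, was the lowest at 0.0765 FPKM. Of 13 genes of pericytes and smooth muscle, 4 were at or above 1 FPKM, led by Rgs5 at 3.83 FPKM, and Higd1b and Notch3 were listed at 0.

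Of 19 genes of fibroblasts and interstitial matrix, 13 were at or above 1 FPKM, with a median of 4.81 FPKM. Col3a1 was at 114 FPKM, the matricellular protein gene Postn at 39.6 FPKM and the proteoglycan gene Dcn at 31.9 FPKM. Col1a1 and Col1a2, which encode the chains of the most common collagen, were at 8.51 and 8.80 FPKM, more than 10 times lower than Col3a1. All 10 basement membrane genes were at or above 1 FPKM, with Col4a1 at 120 FPKM, Nid1 at 119 FPKM and Lamb1 at 95.1 FPKM.

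Markers of epidermis, fat, muscle and nerve sheath were also read. Of 17 epidermal genes, 9 (52.9%) were at or above 1 FPKM, near the background of 46.8%. Among them were Sbsn, a secreted protein of the upper epidermis, at 39.4 FPKM, Krt10 at 13.2 FPKM and the basal keratin gene Krt5 at 10.4 FPKM. Of 15 adipocyte genes, 3 were at or above 1 FPKM, a share below the background. Fabp4, which macrophages and capillaries also use, was at 23.4 FPKM, and Adipoq, the defining adipokine gene, was listed at 0. Of 19 skeletal muscle genes, 5 were at or above 1 FPKM, also below the background, and the highest was Tnnt1 at 5.66 FPKM. Of 8 Schwann cell genes, 0 were at or above 1 FPKM.

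Globin genes were low or had no row. Of 10 erythroid genes, 1 was at or above 1 FPKM, the heme synthesis gene Alas2 at 1.501 FPKM. Hbb-bs, adult beta globin, was at 0.611 FPKM, an estimated 1.99 fragments, and Hba-a1, Hba-a2 and Hbb-bt were not listed. Of 10 platelet genes, the chemokine genes Pf4 at 58.5 FPKM and Ppbp at 6.54 FPKM were at or above 1 FPKM. Clec1b was at 0.151 FPKM, Gp1ba was lower, and the other 6 platelet genes, Itga2b among them, were not listed.

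Genes of other organs mostly had no row or levels under 1 FPKM. Of 13 liver genes, 0 were at or above 1 FPKM, and Alb was listed at 0. The lists of neuron, retina and lens, kidney, intestine and pluripotency had 0 genes at or above 1 FPKM, pancreas had Cela1 at 1.499 FPKM, and heart had Nppb at 2.05 FPKM and Tnnt2 at 1.40 FPKM. Of 1408 olfactory receptor genes, 1303 were not listed, 34 were listed at 0 and 3 were at or above 1 FPKM, the highest Olfr872 at 3.76 FPKM. Of 353 vomeronasal receptor genes, 0 were at or above 1 FPKM. On the sex chromosomes, Xist, the RNA that silences an X chromosome, was at 3.95 FPKM, an estimated 509 fragments. Ddx3y, Eif2s3y, Kdm5d and Uty of the Y chromosome were not listed, and Eif2s3x was at 33.6 FPKM.

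Some very low levels belonged to genes used in every cell. All 30 such genes were at or above 1 FPKM, with a median of 83.5 FPKM, but Gapdh, the glycolytic enzyme, was the lowest at 2.11 FPKM. Other enzymes of the pathway stood far above it, with Pgk1 at 124 FPKM and Tpi1 at 120 FPKM. The annotation held 87 pseudogenes that align to Gapdh at 95% identity or more over at least 200 bases. Of these, 48 were listed, and their levels summed to 9.09 FPKM. Among ribosomal proteins, Rpl17 was at 1.61 FPKM with 23 copies, the most abundant of them Rpl17-ps10 at 47.7 FPKM. Copies did not always go with low levels. Rpl21 had 59 copies and stood at 749 FPKM, but 0 of them were full-length at 99% identity or more, against 23 for Gapdh. Rps12, with 3 such copies, stood at 1765 FPKM. Over all protein-coding genes the median was 14.5 FPKM for the 1195 with a copy and 3.65 FPKM for the 13265 with none. These medians are of different genes, so they do not show whether copies lower a level. Levels of single genes are uncertain where reads could be divided among copies, and the part of the copies in them was not tested.

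The mitochondrially encoded genes separated into a high and a low set. The 2 ribosomal RNAs and 7 protein genes were between 1466 and 65594 FPKM, and 6 protein genes were between 3.40 and 41.8 FPKM, although the genes are transcribed as long joint precursors. Of the 6, mt-Co2 (40.2 FPKM), mt-Atp6 (26.8 FPKM), mt-Co3 (11.1 FPKM), mt-Nd3 (7.23 FPKM) and mt-Nd4l (3.40 FPKM) have a full-length nuclear copy on chromosome 1 that aligned with 100% identity. No full-length copy at 99% identity or more was aligned to any of the high genes. The copies themselves had levels like those of the low genes: Gm28661 of mt-Co2 was at 19.1 FPKM, Gm10925 of mt-Atp6 at 36.3 FPKM and Gm28437 of mt-Co3 at 11.1 FPKM. For mt-Atp8 at 41.8 FPKM no copy was aligned. Only annotated pseudogene transcripts were searched, so a copy without such an annotation could not be found. Except for mt-Atp8, the low values of these genes go with identical copies. Among nuclear genes with a full-length copy at 100% identity, Gapdh was at 2.11 FPKM, while Rps12 was at 1765 FPKM and Rps6 at 474 FPKM. How the authors' tools treated reads that map to several places was not tested.

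**Figure D5:**
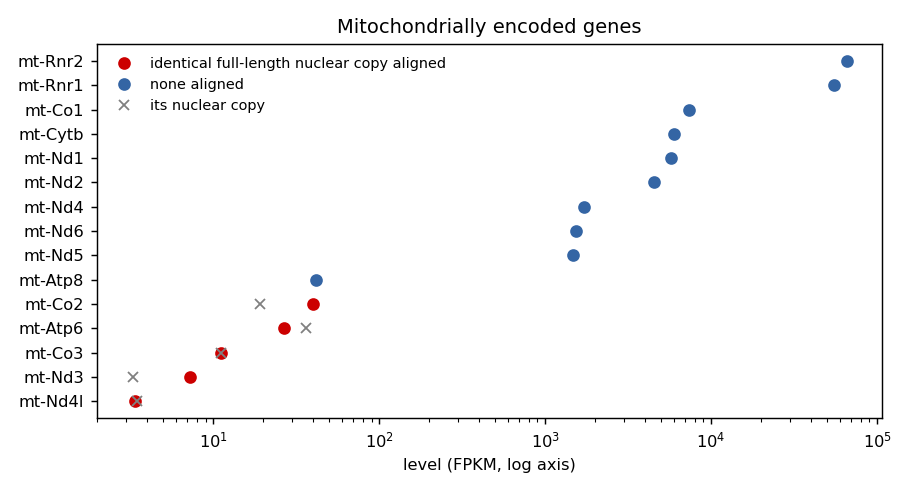
Level of the 15 listed mitochondrially encoded genes (FPKM on a log axis), with genes that have an identical full-length nuclear copy in red, the others in blue, and the copy's own level as a grey cross. The 5 genes with an identical copy lie at or below 40.2 FPKM, beside their copies. The 9 highest genes, all at or above 1466 FPKM, had none aligned.

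Bases 201 to 280 of 2 mitochondrial transcripts and their nuclear copies show the difference, with bases at which a gene and its copy differ in capitals. The sequences are from GENCODE M21, 5′ to 3′ on the strand of each gene. mt-Co3 lies at chrM:8607-9390 on the plus strand, and Gm28437 at chr1:24613189-24613971 on the minus strand. mt-Co1, at 7359 FPKM, lies at chrM:5328-6872 on the plus strand, and its copy Gm13340, at 1.71 FPKM, at chr2:22588103-22589647 on the minus strand. The stretch of mt-Co3 holds 0 differences. That of mt-Co1 holds 1, out of 37 over its 1545 bases.
mt-Co3: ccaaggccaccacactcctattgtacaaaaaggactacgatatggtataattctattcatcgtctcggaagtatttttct
Gm28437: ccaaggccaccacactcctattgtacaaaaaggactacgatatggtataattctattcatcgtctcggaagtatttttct
mt-Co1: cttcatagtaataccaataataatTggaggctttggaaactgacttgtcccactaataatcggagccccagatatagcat
Gm13340: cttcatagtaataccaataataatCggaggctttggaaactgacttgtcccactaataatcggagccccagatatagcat

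Promoter composition differed between the classes of level, which is a description across genes. RefSeq (GRCm38.p6) gave a unique window of 250 bases before the start for 13838 protein-coding genes. The median number of CG dinucleotides in the window was 2 for genes not listed, 5 for those listed at 0, 10 for those under 1 FPKM, 15 from 1 to under 10 FPKM, 18 from 10 to under 100 FPKM and 19 at 100 FPKM or more. The median over all windows was 10. Genes listed at 0 differ from those not listed by a value in the PAZA column, so the step from 2 to 5 is not one of Control level. The letters GGGCGG, searched on both strands, were in 18.7% of windows of genes not listed and in 65.8% of those at 100 FPKM or more, against 43.6% of all windows. The letters TATAAA, also on both strands, went the other way, with 22.7% of genes not listed and 7.61% of those at 100 FPKM or more, against 12.7% of all. Without predicted genes and receptor families, the genes not listed had a median of 4 CG dinucleotides, GGGCGG in 28.0% of windows and TATAAA in 16.1%. CCAAT changed least, from 35.8% to 40.2%, against 36.5% of all. A match is a description of letters, not a binding site, and the motifs were counted without regard to overlap with each other.

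Windows of 4 genes show the range, with CG dinucleotides in capitals. Pcna and Rpl23 stand for expressed genes of growth, Alb for a gene of another organ and Sftpb for the lung epithelium. Pcna, at 263 FPKM, holds 22 CG in chr2:132253181-132253430 on the minus strand. Rpl23, at 1679 FPKM, holds 15 in chr11:97782440-97782689 on the minus strand. Alb, listed at 0, holds 2 in chr5:90460620-90460869 on the plus strand. Sftpb, not listed, holds 7 in chr6:72304360-72304609 on the plus strand, more than the median of its class. B2m, the most abundant messenger RNA at 10237 FPKM, holds only 8 in its own window, below the median of all genes, so the relation is over classes and not for each gene.
Pcna: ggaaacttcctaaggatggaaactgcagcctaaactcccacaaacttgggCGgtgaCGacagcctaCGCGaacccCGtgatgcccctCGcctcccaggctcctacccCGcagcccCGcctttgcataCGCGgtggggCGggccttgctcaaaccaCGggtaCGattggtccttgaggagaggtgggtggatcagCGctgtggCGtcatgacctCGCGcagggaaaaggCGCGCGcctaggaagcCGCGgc
Rpl23: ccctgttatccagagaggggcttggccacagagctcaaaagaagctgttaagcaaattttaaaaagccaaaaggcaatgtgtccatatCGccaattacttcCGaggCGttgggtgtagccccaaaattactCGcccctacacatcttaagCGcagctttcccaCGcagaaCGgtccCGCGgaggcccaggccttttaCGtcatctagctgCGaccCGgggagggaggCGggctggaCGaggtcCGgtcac
Alb: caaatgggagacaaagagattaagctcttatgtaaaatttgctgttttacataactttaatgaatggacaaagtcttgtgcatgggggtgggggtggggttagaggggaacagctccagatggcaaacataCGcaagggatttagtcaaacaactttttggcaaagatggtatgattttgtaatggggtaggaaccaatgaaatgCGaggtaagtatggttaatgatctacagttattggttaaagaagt
Sftpb: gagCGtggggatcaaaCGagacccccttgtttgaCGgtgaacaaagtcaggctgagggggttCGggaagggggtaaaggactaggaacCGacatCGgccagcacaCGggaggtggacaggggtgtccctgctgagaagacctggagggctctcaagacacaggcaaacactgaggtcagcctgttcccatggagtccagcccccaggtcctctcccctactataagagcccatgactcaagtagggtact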

How the data were processed

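RNA sequencing of 1 untreated library was described. The authors deposited values per gene symbol for pairs of groups with no unit named, and the deposited values were read as FPKM from their form and from the tools in the submitters' processing notes, HISAT2 and StringTie with the build GRCm38. Tool versions and the annotation release are not given in the sources used here. The Control column was used as deposited, without further normalization or a pseudocount. Symbols were compared with GENCODE M21, which matched 19807 of 20236, and 21 symbols had been turned into numbers.

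The weight of 1 fragment was fitted to weak values of genes with a single transcript of at least 600 bases, and the fit was tested on simulated data. Intervals are exact Poisson intervals at 95%, and the floor for a gene at 0 is 3 fragments. Pseudogene copies were aligned with minimap2 2.31, and a full-length copy covers at least 80% of the gene. Other steps used Python 3.11.15, numpy 2.4.6, pandas 2.3.3 and scipy 1.17.1.

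The library and the 63 gene lists were chosen with earlier results of these data known. Genes named are the 30 highest symbols, all genes of the lists of housekeeping genes, drug and carrier targets, tumor suppressors, the MYC family and the sex chromosomes, and of each other list the 5 highest, the 3 lowest above 0 and those at 0, with a selection where these are many. Defining markers, genes not listed, genes with copies, the neighbours of Cdkn2a and Rhox5 were added after their values were seen. Some genes that this rule names are not reported here. No test across genes was run. Values of the other groups, and the authors' other tables, entered no comparison, but a value in the PAZA column decided which genes were listed at 0. A second table gave only its symbols.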

Additional observations from a re-analysis of the deposited data

How the results depend on the processing

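No paired analysis was possible because each group has 1 library, and for the same reason no replicate could be left out. No symbol was repeated, so the alternatives for repeated symbols gave no value. The count of 11461 symbols at or above 1 FPKM was 16464 at a threshold of 0.1, 13069 at 0.5, 5204 at 10 and 11445 without symbols that are numbers. The shares of the sum held by the 10, 100 and 1000 most abundant symbols were 36.7%, 54.2% and 77.1%. They were 21.1%, 39.7% and 69.5% without mitochondrially encoded genes, 29.7%, 48.5% and 74.3% without the most abundant gene, and 10.2%, 29.6% and 65.7% for values times coding length, which leaves out noncoding symbols. Among alternatives chosen after seeing the data, they were 20.4%, 36.7% and 67.6% for values times the longest transcript length and 13.6%, 34.2% and 66.9% for protein-coding genes only. Cytosolic ribosomal proteins held 6.24% of the sum over all symbols and 3.71% of the sum of values times coding length, a total that holds only genes with a coding length, so weighting and total both differ. With predicted genes and receptor families left out, the median number of CG dinucleotides was 4 rather than 2 for genes not listed, and 19 at 100 FPKM or more under either choice. Of the 63 lists, 25 had at least 50% of their members at or above 1 FPKM, and 36 and 28 did so at thresholds of 0.1 and 0.5. At 0.1 the count rose from 4 to 10 for simple epithelium and from 9 to 21 for T cell. List medians changed in 30 of 63 lists with members above 0 only. With members not listed set to 0, chosen after seeing the data, they changed in 43 of 63. The platelet median went from 3.34 to 0 FPKM, and that of MHC class I from 13.1 to 12.5 FPKM. The depth of about 7266000 fragments limits markers near 1 fragment, such as Cdkn2b, Tbx21 and Ifng, whose levels have wide intervals.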

Other observations

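The remaining lists follow as values. All 16 chaperone and ferritin genes were at or above 1 FPKM, with a median of 546 FPKM. Hsp90ab1, a cytosolic chaperone, was at 1274 FPKM, and Canx and Calr, the lectin chaperones that fold glycoproteins, were at 767 and 759 FPKM. All 23 cytoskeleton genes were at or above 1 FPKM, with a median of 243 FPKM. Tpm1, which coats actin filaments, was at 652 FPKM and Anxa2, a membrane-binding annexin, at 562 FPKM, while the tubulin genes Tuba1b and Tuba1c were at 6.95 and 7.30 FPKM. All 20 translation factor genes were at or above 1 FPKM, with a median of 223 FPKM, from Eif4e, the cap-binding factor, at 46.0 FPKM upward. Of 10 plasma cell genes, 3 were at or above 1 FPKM. Xbp1 at 27.5 FPKM and Sdc1 at 13.5 FPKM serve other secretory and epithelial cells too, and the immunoglobulin gene Igkc was at 1.16 FPKM.

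Gene families differed in how many members had a row. Of 417 zinc finger genes with Zfp names, 279 were at or above 1 FPKM, with a median of 2.75 FPKM. Of 57 protocadherin genes, 1 was, Pcdhgc3 at 1.81 FPKM. Of 27637 predicted genes with Gm names, 957 were at or above 1 FPKM and 23167 were not listed, and of 2975 cDNA genes with Rik names 241 were. Of 43 taste receptor genes, 42 were not listed, as were 57 of 58 hair keratin-associated protein genes and 87 of 88 defensin genes. Of 1177 microRNA and host genes, 5 were at or above 1 FPKM, and of 138 named small nucleolar RNA genes 20 were. Of 26 histone genes found by name, 14 (53.8%) were at or above 1 FPKM, near the background of 46.8%. Histone genes under other names were not counted.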
